A study of Mus musculus with 29 samples.

Results

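The heat shock chaperone genes described here are Hspe1, Hspd1, Hspa9, Hspa8, Hspa4, Hsph1, Dnaja1, Hsp90aa1 and Hsp90ab1, with Hsf1, which encodes a factor that induces heat shock genes under stress. They were measured in a study of acidity and regulatory T cell induction, and these 10 genes were taken by symbol from the 55414 gene identifiers of the count tables, and each of the 10 matched 1 identifier. All 10 passed the filter on low counts, as did 14375 genes in all. CD4+ T cells came from spleens of C57BL/6-Foxp3tm1Flv/J mice, in which red fluorescent protein (RFP) reports Foxp3, the master regulator gene of regulatory T cells. In every group the cells were stimulated with antibodies to CD3 (1.25 ug/ml) and CD28 (2.5 ug/ml) in RPMI medium with 0.5 mM glucose and 50 IU/ml interleukin 2. TGF-beta, which switches Foxp3 on during activation, was used at 3 ng/ml, and lactic acid at 10 mM. RFP-positive cells (Treg) were sorted at 72 h from medium with TGF-beta and lactic acid and from medium with TGF-beta alone. RFP-negative cells (Tcon) were sorted at 72 h and at 24 h from 4 media, which held TGF-beta and lactic acid, TGF-beta alone, lactic acid alone, or neither. Each of the 10 groups had 3 libraries, except Tcon at 72 h with neither addition, which had 2, so that there were 29 libraries of polyadenylated RNA. Male mice gave replicate 1 and female mice gave replicates 2 and 3. Neither the ages of the mice nor the number of animals behind a replicate is stated, so p-values measure the spread between these libraries, which may be partly technical.

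Chaperones bind unfolded proteins and use ATP to help them fold, assemble, cross membranes or refold after stress. HSP70 proteins take up short hydrophobic stretches, J-domain proteins deliver clients and trigger ATP hydrolysis, nucleotide exchange factors release the client, and HSP90 finishes the folding of kinases and steroid receptors. In mitochondria an HSP70 pulls proteins in through the inner membrane, and the HSP60 barrel with its HSP10 lid folds them. HSF1 is not a chaperone. It is the transcription factor that trimerizes under heat or proteotoxic stress and binds heat shock elements, runs of alternating GAA and TTC units. Activated T cells grow and divide quickly, and chaperone genes are known to be expressed in them at high levels without heat.

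RefSeq promoter windows (mouse assembly GRCm38.p6, 250 bases before to 50 bases after a start) were matched for 5 of the 10 genes, Hspe1, Hspd1, Hspa4, Hsph1 and Dnaja1. The stretch between Hspe1 and Hspd1 is shown because these partner genes lie head to head and share a promoter, so that their levels can be read against the same sequence. RefSeq lists 2 starts for Hspd1, which is read from the other strand. One lies 216 bases before the Hspe1 start, so that both genes run away from each other, and the other lies 95 bases past the Hspe1 start. The bases printed lie between the first exons of both genes in the GENCODE annotation of the same assembly, and capitals mark the run of alternating units.
Hspe1 and Hspd1, chr1:55088025-55088131, plus strand: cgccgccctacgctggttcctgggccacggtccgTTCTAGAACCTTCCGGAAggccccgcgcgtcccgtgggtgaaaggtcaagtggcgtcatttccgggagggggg
The run begins 89 bases before the Hspe1 start and lies in the window of the first of these Hspd1 starts, while the window of the other holds no match. It holds 2 overlapping matches to a 3-unit element made of TTC, GAA and TTC with NN, any 2 bases, between neighbouring units. Both strands of all 32851 windows were searched for it, and 0.603% of them hold it. The Hsph1 windows hold 1 match each, which begins 36 bases past the first and 15 bases past the second of its starts. The windows of Hspa4 and Dnaja1 hold no match.

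Depth was alike over the libraries, with 9754511 to 14315313 gene counts each (median 12106958). T cell markers (8 genes such as Cd3e, Cd4 and Lck) summed to 2536.5 to 3763.6 CPM (read counts scaled to library size). Foxp3 had 362 to 572 CPM in Treg with TGF-beta and lactic acid and 153 to 303 CPM in Treg with TGF-beta alone, and at most 73.2 CPM in Tcon with TGF-beta and 1.97 CPM in Tcon without it. Among markers of other cells, 7 B cell genes summed to 139 to 357 CPM and 7 CD8 and natural killer genes to 29.3 to 153 CPM. The defining genes Cd79a and Ms4a1 of B cells and Klrb1c and Ncr1 of natural killer cells, and 6 of 8 myeloid markers, stayed below 1 CPM in all 29 libraries. Of the male libraries of 72 h, 4 stood apart in some heat-inducible genes. All male libraries are replicate 1, so sex cannot be told apart from replicate number. Hspa1a, the classic heat-induced HSP70, had 59.7 CPM in Treg with TGF-beta, 44.4 CPM in Tcon with TGF-beta, 35 CPM in Tcon with lactic acid and 80.3 CPM in Tcon with neither addition in replicate 1, against 0.0737 to 11.2 CPM in the other 25 libraries. Its near-identical copy Hspa1b had 60.1 to 124 CPM in the same 4 libraries and 0.251 to 16.5 CPM in the others, and reads may be split between the copies. The male libraries of the media with both TGF-beta and lactic acid were not among the high ones, with 1.31 CPM of Hspa1a in Treg and 0.479 CPM in Tcon. Fits without the 10 male libraries are therefore given beside the results they change.

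Levels per transcript length spread widely. Averaged over the 29 libraries, Hsp90ab1, the constitutive cytosolic HSP90, had 2395.1 CPM per kilobase, and Hspa8 (HSC70), the constitutive cytosolic HSP70, had 757 CPM per kilobase. Hspa9 (mitochondrial HSP70, or mortalin) had 335 CPM per kilobase, Hspd1 (HSP60) 294, Hsp90aa1, the inducible HSP90, 191, and Hspe1 (HSP10) 162. Hspa4 and Hsph1, HSP110 proteins that act as exchange factors of HSP70, had 116 and 95.9 CPM per kilobase, Hsf1 had 36.8 and the J-domain protein Dnaja1 had 19.9. Of the 10 genes, 7 had their highest group mean in Tcon at 24 h with neither addition, Hsph1 in Tcon at 24 h with lactic acid, and Hspa9 and Hsp90aa1 in Tcon at 72 h with lactic acid. The lowest mean was in Treg with TGF-beta and lactic acid for 5 genes and in Tcon of that medium at 72 h for 4. The highest group mean was 4.43 times the lowest for Hsph1 and 4.42 times for Hspd1, but 1.56 times for Hspa8. When the 10 groups were ranked by mean, most neighbours overlapped in their libraries: of 9 neighbouring pairs, 3 were apart for Hspe1, Hspa9 and Hsp90ab1, 2 for Hspd1, and 0 for Hspa8 and Hsf1.

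**Figure D1:**
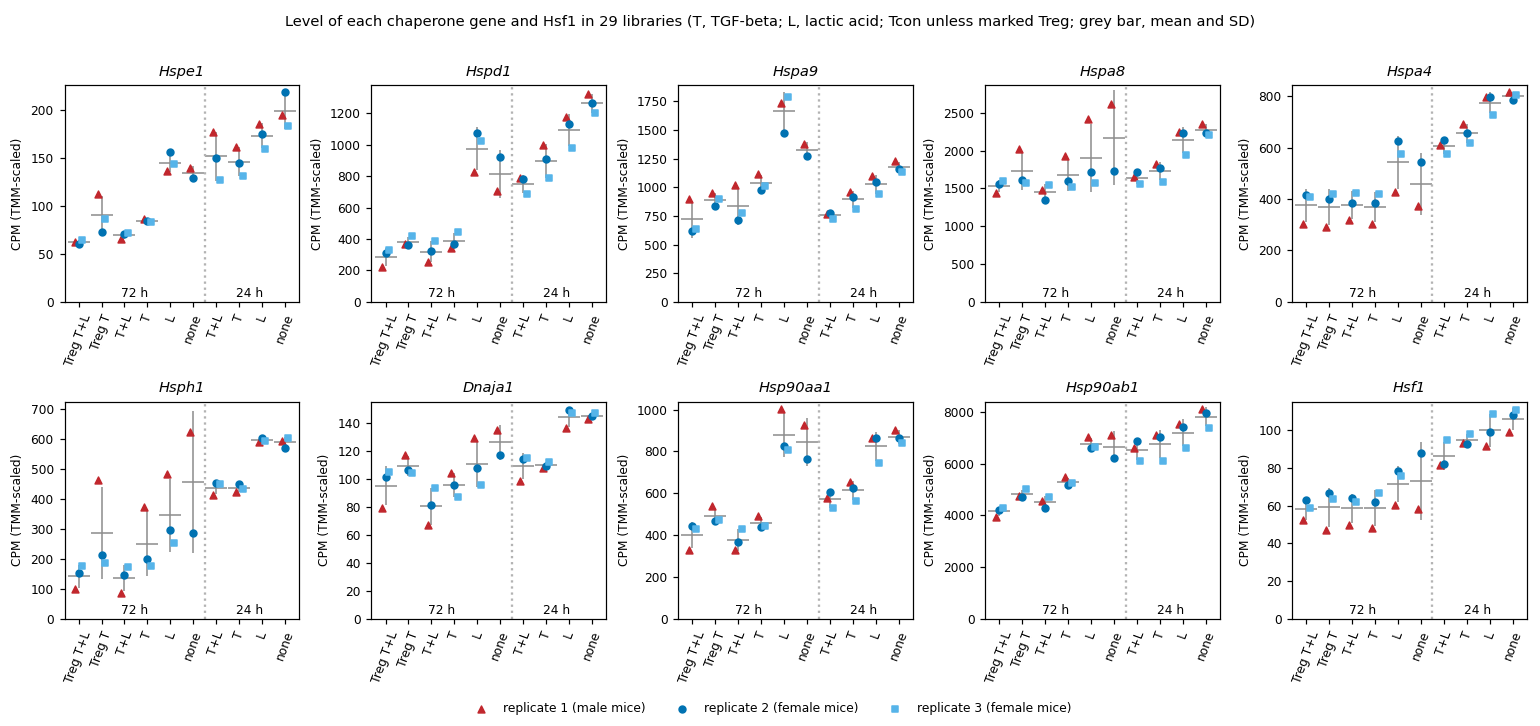
CPM on library sizes scaled by TMM (y axis, from 0) of the 10 genes in the 10 groups (x axis), with 72 h left of 24 h in each panel, points for libraries by replicate and grey bars for mean and SD. The male libraries (triangles) of 72 h lie above the others for Hsph1 and Hspa8 except with both TGF-beta and lactic acid, and below them for Hspa4 and Hsf1.

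In Tcon at 72 h with lactic acid present, 9 of the 10 genes fell with TGF-beta and Hsf1 was not called (called means an adjusted p below 0.05 in edgeR's quasi-likelihood test, Benjamini-Hochberg over all genes). Of all genes tested, 22.5% fell in this comparison. The median log2 fold change of the 10 genes was -0.79, against -0.02 for all genes. In bulk RNA, fewer cells of a type and less RNA per cell cannot be told apart.

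The 3 mitochondrial folding genes fell in this comparison, and Hspd1 had the fold change furthest from 0 of the 10 genes. Hspd1, the HSP60 subunit, had 253, 321 and 386 CPM with TGF-beta and lactic acid, against 823, 1076.6 and 1025.8 CPM with lactic acid alone. All 3 libraries with TGF-beta lay far below all 3 without, and the log2 fold change was -1.61 ± 0.16 (SE, adjusted p = 3.31e-08), a 3.05-fold lower level. Hspe1, its HSP10 lid, had 65, 71 and 72.1 CPM with both additions, against 136, 156 and 143 CPM with lactic acid alone, a log2 fold change of -1.06 ± 0.13 (adjusted p = 4.23e-07). The 2 groups did not overlap. Hspa9, the import motor of the matrix, had 1022.5, 718 and 771 CPM with both additions, against 1732.9, 1472.1 and 1783.2 CPM with lactic acid alone (-0.99 ± 0.13, adjusted p = 2.14e-06). For these 3 genes the call held in all 6 fits that left out 1 library, with log2 fold changes of -1.76 to -1.46 for Hspd1, -1.09 to -1.01 for Hspe1 and -1.16 to -0.89 for Hspa9.

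Both HSP90 genes fell with TGF-beta in the presence of lactic acid at 72 h, the inducible one further than the constitutive one. Hsp90aa1 had 328, 366 and 431 CPM with both additions, against 1004.8, 827 and 808 CPM with lactic acid alone (-1.23 ± 0.12, adjusted p = 3.22e-08). Hsp90ab1 had 4570.0, 4295.6 and 4730.2 CPM, against 7031.9, 6627.5 and 6668.8 CPM (-0.58 ± 0.08, adjusted p = 6.31e-06). The ratio of Hsp90ab1 to Hsp90aa1 counts was 12.2 ± 1.53 with both additions and 7.76 ± 0.667 with lactic acid alone (SD, n = 3 each), and its libraries did not overlap, 11 to 13.9 against 7 to 8.26.

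The genes of the cytosolic HSP70 system differed in size of change. Hspa8 had 1483.6, 1345.5 and 1541.6 CPM with both additions, against 2413.8, 1717.0 and 1569.1 CPM with lactic acid alone (-0.38 ± 0.15, adjusted p = 0.0383), and the male library was the high one without TGF-beta. Hspa4 had 319, 386 and 424 CPM, against 426, 627 and 573 CPM (-0.53 ± 0.16, adjusted p = 0.012). The highest library with TGF-beta lay just below the lowest without. Dnaja1, a type A J-domain partner of HSP70, had 66.9, 81.1 and 93.3 CPM, against 129, 108 and 95.5 CPM (-0.46 ± 0.12, adjusted p = 0.00299). Hsph1 had 86.5, 146 and 171 CPM, against 485, 297 and 253 CPM (-1.36 ± 0.34, adjusted p = 0.00247), and its male library was the highest without TGF-beta and the lowest with it. Without the male libraries the log2 fold change was -0.81 for Hsph1, -0.24 for Dnaja1 and -0.21 for Hspa8, for which the call was lost (adjusted p = 0.0659). Leaving out replicate 1 of either group or replicate 2 of the TGF-beta group also ended the call of Hspa8, and leaving out replicate 1 of the TGF-beta group or replicate 2 or 3 of the other ended that of Hspa4 (-0.48 to -0.14 and -0.64 to -0.41 over 6 fits).

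Hsf1, the regulator, had 49.9, 63.9 and 61.9 CPM with both additions, against 60.5, 78.4 and 76 CPM with lactic acid alone (-0.29 ± 0.15, adjusted p = 0.118). Each TGF-beta library was below the library of the same replicate number. With replicates blocked within a time point, all 10 genes were called lower, Hsf1 included (-0.29, adjusted p = 0.000441), against 30.9% of all genes.

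Without lactic acid at 72 h, 5 of the 10 genes fell with TGF-beta, against 11.7% of all genes. Hspd1 had 344, 368 and 441 CPM with TGF-beta, against 705 and 923 CPM with neither addition (-1.08 ± 0.17, adjusted p = 5.53e-05). Hsp90aa1 had 489, 437 and 445 CPM, against 925 and 763 CPM (-0.89 ± 0.13, adjusted p = 2.69e-05). Hspe1 had 85.8, 84.3 and 83.1 CPM, against 139 and 129 CPM (-0.67 ± 0.14, adjusted p = 0.000835). In none of these 3 genes did the groups overlap. Dnaja1 (-0.40 ± 0.13, adjusted p = 0.0301) and Hsp90ab1 (-0.33 ± 0.09, adjusted p = 0.0108) were also called, and the call of Hsp90ab1 ended without replicate 1 of the group with neither addition, as did that of Dnaja1, which was called in 2 of 5 fits that left out 1 library. The other 5 genes had values of -0.87 (Hsph1) to -0.31 (Hspa4) with adjusted p of 0.0746 to 0.233. With replicates blocked all 10 were called, against 24.1% of all genes lower, and without the male libraries 8 were, against 17.5%. The fit without the male libraries held 1 library with neither addition, so its count rests on that library. It gave -0.27 for Hsp90ab1 and -0.16 for Hspa8.

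At 24 h, when no RFP-positive cells were sorted, TGF-beta was compared in the same media. Without lactic acid 4 of the 10 genes fell, against 3.35% of all genes: Hspe1, Hspd1, Dnaja1 and Hsp90aa1. With lactic acid 4 also fell, against 4.38% of all genes: Hspd1, Hspa9, Dnaja1 and Hsp90aa1. All 10 genes were below 0 in both comparisons, with medians of -0.40 and -0.39, against 0.00 and 0.01 for all genes. Dnaja1 showed the tightest groups. It had 108, 109 and 112 CPM with TGF-beta, against 143, 145 and 147 CPM with neither addition (-0.40 ± 0.12, adjusted p = 0.0287). Hsp90aa1 had 654, 626 and 564 CPM, against 904, 864 and 838 CPM (-0.50 ± 0.12, adjusted p = 0.00747). Hspd1 had 996, 907 and 785 CPM, against 1324.6, 1264.1 and 1202.2 CPM (-0.50 ± 0.16, adjusted p = 0.0418). The libraries of both groups were apart in each of these genes. Hsph1, not called, had 425, 449 and 432 CPM with TGF-beta, against 593, 572 and 606 CPM (-0.44 ± 0.33, adjusted p = 0.446). Its groups at 24 h were tight, and its SE came from a spread shared over all groups, the split 72 h groups included. Without the male libraries it was called (-0.42, adjusted p = 0.00688).

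Counts of calls at 24 h depended on the fit. With replicates blocked, 8 of the 10 were called in each medium, against 15.1% of all genes lower without lactic acid and 15.1% with it. Without the male libraries 8 were called in each medium, against 9.35% without lactic acid and 9.88% with it. Leaving out 1 library without lactic acid kept Hsp90aa1 in 5 of 6 fits (lost without replicate 3 of the TGF-beta group), Hspe1 in 2, Hspd1 in 1 and Dnaja1 in 0. With lactic acid, Hsp90aa1 was called in 6 of 6, Dnaja1 in 3, Hspd1 in 2 and Hspa9 in 1. The log2 fold changes of these genes lay between -0.63 and -0.34 in every such fit.

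**Figure D2:**
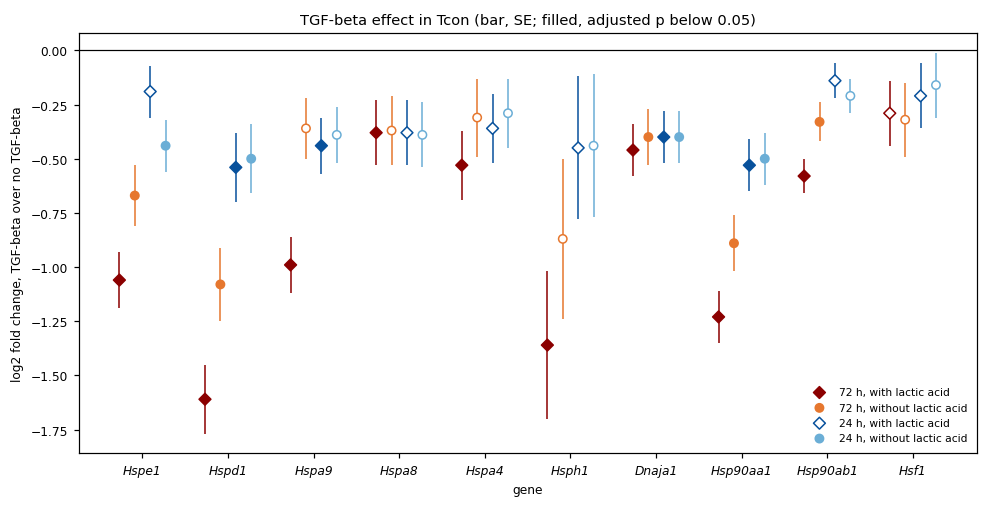
log2 fold change of TGF-beta over no TGF-beta in Tcon (y axis) for the 10 genes (x axis) in 4 settings, with SE bars and filled points for an adjusted p below 0.05. All 40 points lie below 0, and the setting of 72 h with lactic acid has the lowest point of each gene except Hspa8 and Hsf1.

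The effect of TGF-beta was larger at 72 h than at 24 h for some of these genes. In the presence of lactic acid, the test of the difference between both times called 5 of the 10 genes, all further below 0 at 72 h, against 7.66% of all genes in that direction: Hspd1 (-1.06 ± 0.22, adjusted p = 0.00206), Hspe1 (-0.87 ± 0.18, adjusted p = 0.00159), Hsp90aa1 (-0.70 ± 0.17, adjusted p = 0.0071), Hspa9 (-0.55 ± 0.18, adjusted p = 0.0488) and Hsp90ab1 (-0.44 ± 0.12, adjusted p = 0.0138). Hspd1, Hspe1 and Hsp90aa1 were called in all 12 fits that left out 1 library, Hsp90ab1 in 10 and Hspa9 in 2. The call of Hsp90ab1 ended without replicate 3 of lactic acid at 24 h or replicate 1 of lactic acid at 72 h, with values of -0.49 to -0.35 over the 12 fits. Hspa8 (0.00 ± 0.21), Dnaja1 (-0.06 ± 0.17) and Hsf1 (-0.08 ± 0.21) had values near 0. Without lactic acid 0 of the 10 were called with edgeR or DESeq2, against 5.72% of all genes in either direction, and 2 had an unadjusted p below 0.05. Hspd1 had the value furthest from 0 (-0.59 ± 0.23, adjusted p = 0.164). It was called with replicates blocked (-0.67, adjusted p = 0.000256, against 11.4% of all genes lower) and without the male libraries (-0.67, against 5.24%). The latter fit held 1 library at 72 h with neither addition, so that call rests on that library.

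Marker levels of other cells also differed with TGF-beta. The 7 CD8 and natural killer markers summed to 136 to 153 CPM in Tcon at 72 h with both additions, against 44.6 to 112 CPM with lactic acid alone, while Klrb1c and Ncr1 stayed below 1 CPM. The T cell markers were called in both directions in that comparison, 4 of 8 higher and 1 lower. At 24 h the CD8 and natural killer sums were 50.7 to 53.3 CPM with both additions, against 29.3 to 31 CPM with lactic acid alone, and those of 7 B cell markers 145 to 167 CPM, against 230 to 252 CPM. The part of these markers in the chaperone differences was not tested.

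The 2 times were compared within each medium in Tcon. In the medium with neither addition, 5 of the 10 genes were lower at 72 h than at 24 h, against 18.4% of all genes. Hspa4 had 372 and 543 CPM at 72 h, against 816, 783 and 803 CPM at 24 h (-0.81 ± 0.19, adjusted p = 0.00126). Hspd1 (-0.63 ± 0.18, adjusted p = 0.00587), Hspe1 (-0.57 ± 0.14, adjusted p = 0.00222), Hsf1 (-0.53 ± 0.17, adjusted p = 0.0127) and Hsp90ab1 (-0.23 ± 0.09, adjusted p = 0.0481) were lower too. Without replicate 1 of the 72 h group, Hspd1, Hspa4 and Hsf1 lost their calls and 2 genes were called, and Hsp90ab1 was called in 2 of 5 such fits. Without the male libraries of both times 8 genes were lower, against 17.9% of all genes. That fit held 1 library at 72 h with neither addition, so the count rests on that library. Hsph1 had -1.04 in that fit, in place of -0.37 ± 0.38.

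Lactic acid medium was the 1 medium in which a member was called higher at 72 h. In the medium with lactic acid 3 genes were lower at 72 h, against 20.1% of all genes, and 1 was higher, against 26.5%. The higher one was Hspa9, with 1732.9, 1472.1 and 1783.2 CPM at 72 h, against 1101.4, 1043.6 and 938 CPM at 24 h (0.69 ± 0.13, adjusted p = 0.000138, called in all 6 fits that left out 1 library). The lower ones were Hspa4 (-0.51 ± 0.16, adjusted p = 0.0129), Hsf1 (-0.48 ± 0.15, adjusted p = 0.0109) and Dnaja1 (-0.38 ± 0.12, adjusted p = 0.0112). The calls of Hspa4 and Hsf1 ended without replicate 1 of the 72 h group (-0.38 each), and that of Dnaja1 without replicate 3 (-0.28). Hsp90aa1 had 1004.8, 827 and 808 CPM at 72 h, against 866, 864 and 743 CPM at 24 h (0.09 ± 0.12, adjusted p = 0.551), and these ranges overlapped.

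With TGF-beta alone 7 of the 10 were lower, against 24.8% of all genes, and with TGF-beta and lactic acid 8 were, against 23%. Hsph1 had 86.5, 146 and 171 CPM at 72 h, against 412, 453 and 450 CPM at 24 h with both additions (-1.70 ± 0.34, adjusted p = 0.000276), the furthest of all members. Hspd1 had -1.22 ± 0.16 with TGF-beta alone and -1.23 ± 0.16 with both additions, and Hspe1 had -0.79 ± 0.12 and -1.13 ± 0.13. Hspa9 was 0.21 ± 0.13 and 0.15 ± 0.13 in the same media and was not called, with adjusted p of 0.183 and 0.372. With TGF-beta alone the call of Hsph1 (-0.80 ± 0.34, adjusted p = 0.0484) held in 1 of 6 fits that left out 1 library, and it was -1.26 without the male libraries. The 8 calls with both additions held in every such fit. The 7 CD8 and natural killer markers summed to 136 to 153 CPM at 72 h, against 50.7 to 53.3 CPM at 24 h with both additions, where 4 of the 5 tested were higher, and 4 of 8 T cell markers were lower and 1 higher. With TGF-beta alone the sums were 116 to 129 CPM at 72 h, against 58.5 to 65.8 CPM at 24 h. The part of these markers in the differences over time was not tested.

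Of the 3 mitochondrial folding genes, Hspe1 and Hspd1 thus had a similar course over the groups, and Hspa9 had a different one. The ratio of Hspd1 to Hspe1 counts was 4.59 ± 0.729 in Tcon with both additions at 72 h, 4.56 ± 0.668 with TGF-beta alone, 6.72 ± 0.579 with lactic acid alone (SD, n = 3 each) and 6.11 ± 1.48 with neither addition (SD, n = 2). At 24 h it was 5.02 ± 0.511, 6.13 ± 0.131, 6.32 ± 0.137 and 6.39 ± 0.537 in the same order of media (SD, n = 3 each). Across the 10 group means of log2 CPM, Hspe1 and Hspd1 had Pearson's r = 0.99, while Hspa9 had r = 0.51 with Hspe1 and r = 0.59 with Hspd1. Hspe1 and Hspd1 each had r = 0.99 with the cytosolic Hsp90ab1 as well, so this value was not particular to the partner genes. Hspa4 and Hsf1 also had r = 0.99, and Hspa9 and Hsf1 r = 0.20, the lowest of the 45 pairs. These are descriptions over groups that share libraries, medium and time.

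**Figure D3:**
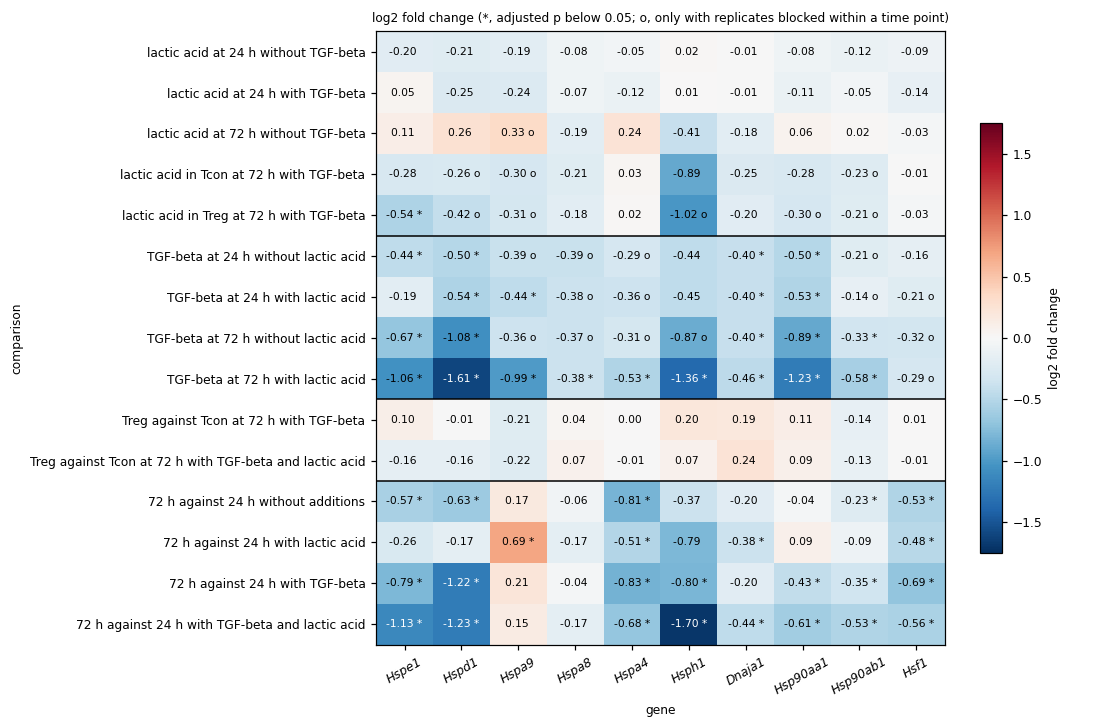
log2 fold changes (colour and number) of the 10 genes (columns) in 15 comparisons (rows, from top to bottom for lactic acid, TGF-beta, Treg against Tcon, and 72 h against 24 h), with a star for an adjusted p below 0.05 and a circle where only the fit with blocked replicates called the gene. The rows of TGF-beta are all below 0, those of Treg against Tcon hold no star, and Hspa9 is the 1 member with a positive called value over time (0.69).

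Lactic acid was the variable the study set out to examine. At 24 h no member was called. Without TGF-beta 0 of the 10 had an adjusted or unadjusted p below 0.05 with edgeR and 0 were called with DESeq2, against 0.0835% of all genes called. With TGF-beta the counts were likewise 0, against 0.23%. Values lay between -0.21 (Hspd1) and 0.02 (Hsph1) without TGF-beta and between -0.25 (Hspd1) and 0.05 (Hspe1) with it. Hspa9 was the member whose libraries were apart in both media, with 1101.4, 1043.6 and 938 CPM with lactic acid, against 1228.8, 1158.4 and 1134.4 CPM with neither addition (-0.19 ± 0.13, adjusted p = 0.853), and with 766, 779 and 723 CPM with both additions, against 957, 912 and 813 CPM with TGF-beta alone (-0.24 ± 0.13, adjusted p = 0.681). Differences of this size were not beyond the spread of the fit.

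At 72 h without TGF-beta 0 of the 10 were called with edgeR or DESeq2, against 0.0696% of all genes, and 1 had an unadjusted p below 0.05. That one was Hspa9, with 1732.9, 1472.1 and 1783.2 CPM with lactic acid, against 1375.5 and 1273.7 CPM with neither addition (0.33 ± 0.15, adjusted p = 0.529). It was the 1 member called with replicates blocked (0.34, adjusted p = 0.0386), against 1.12% of all genes higher. Hsph1 had 485, 297 and 253 CPM with lactic acid, against 626 and 288 CPM (-0.41 ± 0.37), where the male library was the higher in both groups. Its value was -0.07 without the male libraries, a fit that held 1 library with neither addition.

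In Treg at 72 h, Hspe1 fell with lactic acid. It had 62, 60.3 and 64.6 CPM with TGF-beta and lactic acid, against 112, 72.9 and 86.4 CPM with TGF-beta alone (-0.54 ± 0.13, adjusted p = 0.0178). It was the 1 member called lower, against 2.02% of all genes. The male library was the highest of the group with TGF-beta alone, and without it the call was lost, as it was without replicate 2 or replicate 3 of the lactic acid group (-0.67 to -0.36 over 6 fits). Without all male libraries Hspe1 had -0.35 (adjusted p = 0.0668) and Hspa9 was called in its place (-0.46, adjusted p = 0.00649), against 4.44% of all genes lower. With replicates blocked, 6 genes were called lower, against 9.8% of all genes: Hspe1, Hspd1, Hspa9, Hsph1, Hsp90aa1 and Hsp90ab1. Hspd1 had 219, 308 and 331 CPM, against 366, 362 and 418 CPM (-0.42 ± 0.16, adjusted p = 0.158, and 0.000302 when blocked). Hsp90ab1 had 3937.1, 4224.0 and 4295.5 CPM, against 4745.6, 4704.4 and 5006.8 CPM (-0.21 ± 0.08, adjusted p = 0.172, and 0.00582 when blocked). Neither gene's groups overlapped.

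Tcon sorted from the same 2 media had differences of the same sign in all 10 genes. With edgeR and with DESeq2 0 of the 10 were called, against 2.16% of all genes, although 6 had an unadjusted p below 0.05. Hspa9 had 1022.5, 718 and 771 CPM with both additions, against 1115.6, 979 and 1007.5 CPM with TGF-beta alone (-0.30 ± 0.13, adjusted p = 0.271). Hsp90ab1 had 4570.0, 4295.6 and 4730.2 CPM, against 5474.9, 5175.5 and 5258.9 CPM (-0.23 ± 0.08, adjusted p = 0.18). With replicates blocked Hspd1, Hspa9 and Hsp90ab1 were called lower (adjusted p = 0.0182, 0.00761 and 0.00442), against 8.68% of all genes, and without the male libraries Hspa9 was (-0.42, adjusted p = 0.0146), against 3.68%. In both sorted populations Hspe1, Hspd1, Hspa9, Hsph1, Hsp90aa1 and Hsp90ab1 were lower in 3 of 3 replicate numbers with lactic acid, while Hspa4 and Hsf1 had values of -0.03 to 0.03. The difference of the lactic acid effect between Treg and Tcon was called for 0 of the 10 genes by edgeR and DESeq2 and had 0 unadjusted p below 0.05, against 0% of all genes called. Its values lay between -0.25 ± 0.18 (Hspe1) and 0.05 ± 0.17 (Dnaja1).

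Hsph1 had the fold change furthest from 0 with lactic acid, and 1 replicate carried most of it. In Treg it had 98.5, 151 and 175 CPM with both additions, against 465, 212 and 186 CPM with TGF-beta alone (-1.02 ± 0.34, adjusted p = 0.1, and 0.0349 when blocked). In Tcon it had 86.5, 146 and 171 CPM, against 375, 198 and 177 CPM (-0.89 ± 0.34, adjusted p = 0.196). The male pair had log2 ratios of -2.24 and -2.11, and the other pairs -0.49 and -0.08 in Treg and -0.43 and -0.05 in Tcon. Without the male libraries the values were -0.29 in Treg and -0.24 in Tcon. The male libraries with TGF-beta alone are among the 4 with high Hspa1a, whose part in this difference was not tested.

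**Figure D4:**
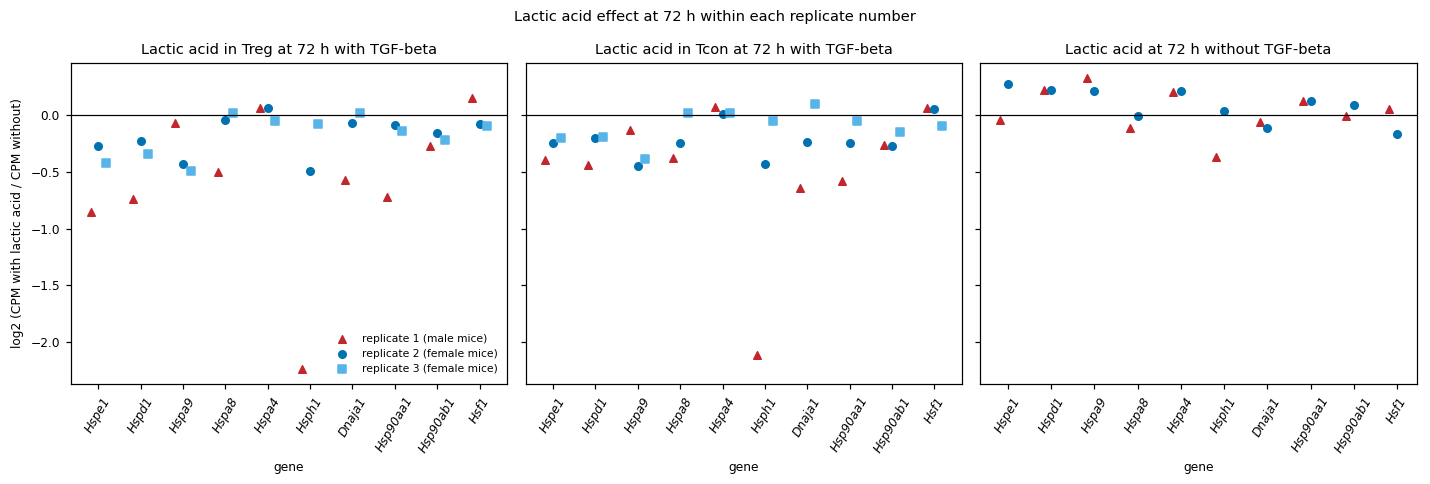
log2 ratio of CPM with lactic acid over CPM without it (y axis) for the 10 genes (x axis) within each replicate number at 72 h, in Treg with TGF-beta, in Tcon with TGF-beta and in Tcon without TGF-beta. The male pair (triangle) of Hsph1 lies at -2.24 and -2.11 with TGF-beta, while the points without TGF-beta lie on both sides of 0.

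Whether lactic acid acted differently with and without TGF-beta was tested directly. At 24 h 0 of the 10 genes were called by edgeR or DESeq2 or had an unadjusted p below 0.05, against 0% of all genes called. At 72 h 0 were called by either tool, against 0.104% of all genes, and 3 had an unadjusted p below 0.05. Those were Hspa9 (-0.63 ± 0.20, adjusted p = 0.318), Hspd1 (-0.52 ± 0.24, adjusted p = 0.59) and Hspe1 (-0.39 ± 0.19, adjusted p = 0.633), the 3 mitochondrial members. Hspa9 and Hspd1 were called with replicates blocked (-0.66, adjusted p = 0.00256, and -0.45, adjusted p = 0.0298), against 2.55% of all genes lower. Without the male libraries Hspa9 had -0.77, in a fit that held 1 library with neither addition.

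Treg were compared with Tcon sorted from the same culture medium. With edgeR and DESeq2 0 of the 10 were called and 0 had an unadjusted p below 0.05, against 0.216% of all genes called with TGF-beta alone and 2.55% with TGF-beta and lactic acid. Hsp90ab1 was lower in Treg in 3 of 3 replicate numbers in both media, with 4745.6, 4704.4 and 5006.8 CPM in Treg, against 5474.9, 5175.5 and 5258.9 CPM in Tcon with TGF-beta alone (-0.14 ± 0.08, adjusted p = 1). Dnaja1 was higher in Treg in 3 of 3 in both media, with 79.3, 101 and 105 CPM in Treg, against 66.9, 81.1 and 93.3 CPM in Tcon with both additions (0.24 ± 0.12, adjusted p = 0.401). Hspa9 was lower in Treg in 3 of 3 in both media (-0.21 ± 0.13 and -0.22 ± 0.13). The values of all 10 genes lay between -0.22 and 0.24.

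Related chaperone genes were counted in the comparison with the most calls, TGF-beta in Tcon at 72 h with lactic acid. Of the 12 chaperones of the endoplasmic reticulum 11 fell and 0 rose, with a median of -0.98. They included Hspa5, the HSP70 of that compartment (878 CPM with both additions, against 2882.1 CPM with lactic acid alone, -1.71 ± 0.24), and Pdia6, a protein disulfide isomerase (-1.52 ± 0.14). Of the 14 subunits of TRiC, the cytosolic folding barrel, and of its partner prefoldin, 12 fell and 0 rose, among them Cct6a (-0.87 ± 0.21) and Pfdn4 (-0.83 ± 0.16). Of the 15 HSP90 co-chaperones 10 fell and 2 rose. Fkbp4, an immunophilin of steroid receptor complexes (-0.94 ± 0.26), and Stip1, which joins HSP70 to HSP90 (-0.67 ± 0.17), were among those that fell. Of the 15 mitochondrial chaperones and proteases 8 fell and 1 rose, among them Clpb, a disaggregase (-1.06 ± 0.10), and Clpp, the subunit of a matrix protease (-0.97 ± 0.22). All of these values have an adjusted p below 0.05. Of all genes tested 22.5% fell and 22.5% rose here.

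In the same comparison, of the 11 relatives and exchange factors of HSP70, 5 fell and 0 rose, with Bag2, an exchange factor, at -1.25 ± 0.19. Of the 13 J-domain proteins 4 fell and 1, Dnajc5 (0.57 ± 0.09), rose. Of the 10 heat-inducible genes tested 4 fell and 0 rose, among them Hspa1a, Hspa1b and Bag3. Hspa1a had 0.479, 0.513 and 0.549 CPM with both additions, against 35, 0.795 and 0.49 CPM with lactic acid alone, and the male library was the 1 high value. Hspb1, Hspb8 and Cryab, the small heat shock proteins of that list, did not pass the filter and reached at most 0.821 CPM. Bag3, a partner of HSP70 induced by stress, averaged 6.8 ± 0.318 CPM with both additions and 19.7 ± 9.3 CPM with lactic acid alone (SD, n = 3 each), and its 15.8 to 39 CPM in the 4 male libraries with high Hspa1a stand against 4.82 to 16.4 CPM elsewhere.

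Without lactic acid at 72 h the same lists gave fewer calls, and 10 of 12 endoplasmic reticulum genes fell, against 11.7% of all genes lower and 12.7% higher. There 4 of 14 TRiC and prefoldin subunits, 4 of 15 mitochondrial genes, 3 of 11 HSP70 relatives and exchange factors and 2 of 15 co-chaperones fell. At 24 h the endoplasmic reticulum genes were little changed, with 1 of 12 called lower without lactic acid and 0 with it. Hsf2, a second heat shock factor, fell with TGF-beta at 24 h without lactic acid (-0.40 ± 0.11, adjusted p = 0.0188) and rose with it at 72 h (0.84 ± 0.13, adjusted p = 3.22e-05), and the difference between both times was called (1.24 ± 0.17, adjusted p = 7.66e-05). Over time 11 of 12 endoplasmic reticulum genes were higher at 72 h than at 24 h with neither addition (median 0.74), where 5 of the 10 heat shock genes were lower and 0 higher. With lactic acid alone 11 of the 12 were higher and 0 lower (median 0.75). With TGF-beta alone 4 of the 12 were higher and 0 lower (median 0.17), and with TGF-beta and lactic acid 2 were higher and 3 lower (median -0.10). Of all genes tested 27.1% were higher and 18.4% lower at 72 h with neither addition, and 26.5% were higher and 20.1% lower with lactic acid alone. With TGF-beta alone 24.8% of all genes were lower, and with TGF-beta and lactic acid 23% were, near the 3 of 12 counted there. The shares of all genes higher in these 2 media are not given here. The counts of 4 and 2 genes higher are therefore not read against them.

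**Figure D5:**
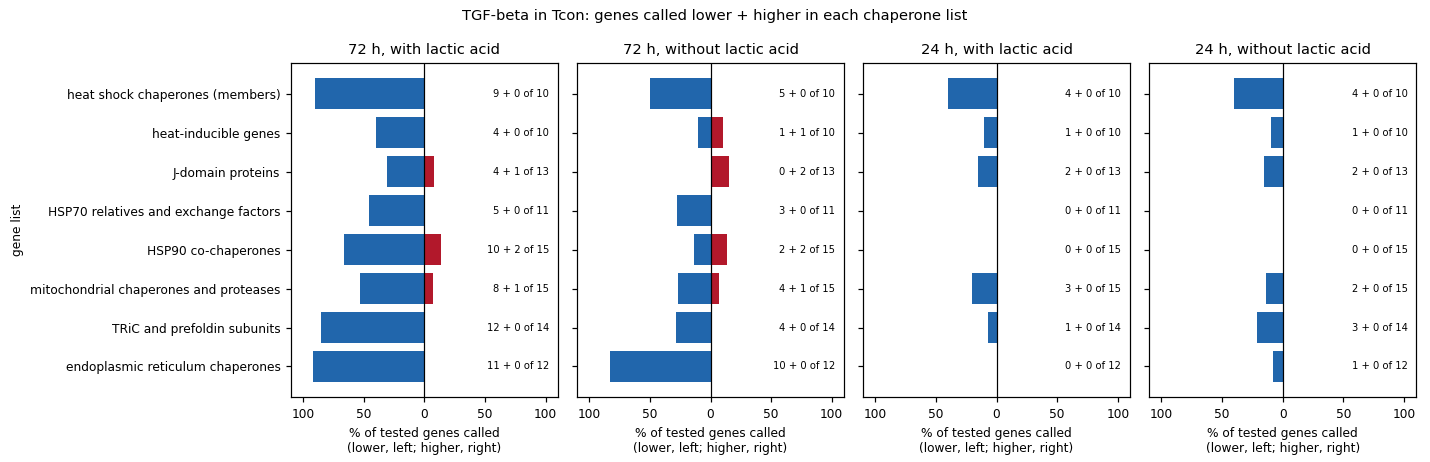
Share of tested genes (x axis, in %) called lower (left of 0) or higher (right of 0) with TGF-beta in Tcon for 8 chaperone lists (rows) in 4 settings (panels), with counts of lower plus higher beside each bar. At 72 h with lactic acid 9 of the 10 heat shock chaperones, 11 of 12 endoplasmic reticulum chaperones and 12 of 14 TRiC and prefoldin subunits were lower.

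Genes outside these lists with the most similar course over the 10 group means were ranked by Pearson's r with the mean standardized log2 profile of the 9 chaperones. Spryd7 (r = 0.992), Tmem33 (r = 0.989), Mcu, the pore of the mitochondrial calcium uniporter (r = 0.987), and Ado (r = 0.986) came first, followed by Pard6b and Gpr174 (r = 0.983 each), Bcl2l1, which encodes the survival protein BCL-XL (r = 0.982), and Nfkbib (r = 0.981). Hsf1 was most like Tmem186 (r = 0.998), followed by Txn2, Kbtbd8, Dhx33 and Nol8 (r = 0.996 each). These values describe 10 points that share time and medium, and they were chosen as the highest among genes whose mean reached 5 CPM.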

How the data were processed

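Per the labels' protocols, polyadenylated RNA was made into strand-specific libraries and sequenced as single reads on a HiSeq2500. Per the submitters' processing notes, STAR 2.7.3a, HTSeq 0.12.4, DESeq2 1.30.1 and the assembly GRCm39 were used. The sources used here give neither the annotation release nor the strand setting of the counting. The deposited values are whole-number read counts per gene, without normalization. Entries that name no gene were left out: 13.3% to 17% of reads had low alignment quality, 5.72% to 11.2% lay in no gene and 1.01% to 1.13% were ambiguous. Symbols were matched for 52081 of 55414 identifiers. Pseudogene copies held counts equal to 6.4% of those of Hspd1 and 1.28% of those of Hspa9, so these 2 genes are uncertain to that extent.

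All 29 libraries entered 1 fit in edgeR 4.0.16 (R 4.3.3) with a mean per group, TMM scaling and filterByExpr (minimum count 10, minimum total 15). The quasi-likelihood test was applied to 20 comparisons, with Benjamini-Hochberg adjustment over the 14375 genes kept. The SE is the absolute log2 fold change divided by the square root of F. CPM use TMM-scaled library sizes, and lengths are those of the longest principal transcript in GENCODE M21. The fits were tested on simulated data. The 10 genes and the lists were chosen with earlier results of these data known. All 10 genes were tested in each comparison, and the text names only some of them in several. From the other lists, called genes with the largest change and a mean of at least 5 CPM were picked to be named.

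Within a time point, libraries with the same number moved together around their group means (0.12 to 0.77, Pearson's r over genes), so the numbers were taken to pair libraries there, and a fit with 6 blocks is given where it changes a call. Alternatives were RLE scaling, no filter, DESeq2 1.42.0, the compared groups alone, the male libraries left out, and each library left out. A fit without the male libraries tested 14605 genes and held 1 library of Tcon at 72 h with neither addition. Promoter sequences are from RefSeq (GRCm38.p6).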

Additional observations from a re-analysis of the deposited data

Results flagged for a closer look

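The effect of TGF-beta in Tcon with lactic acid differed between 72 h and 24 h in 5 of the 10 genes, by the test of that difference in edgeR (72 h minus 24 h, log2). The values were -0.87 for Hspe1, -1.06 for Hspd1, -0.55 for Hspa9, -0.70 for Hsp90aa1 and -0.44 for Hsp90ab1. The log2 fold change with TGF-beta was -1.61 at 72 h and -0.54 at 24 h for Hspd1, and -1.23 and -0.53 for Hsp90aa1. For Hspe1 the values were -1.06 and -0.19, for Hspa9 -0.99 and -0.44, and for Hsp90ab1 -0.58 and -0.14. The call of Hspa9 was made in 2 of 12 fits that left out 1 library and was lost with DESeq2 (adjusted p = 0.0633).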

How the results depend on the processing

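Numbers of the 10 genes called changed with the fit, and no called value changed sign in any alternative. The share of all genes called changed too. For TGF-beta at 24 h without lactic acid, 3.35% of all genes were lower in the main fit and 15.1% with the block. A higher count is thus not by itself a larger effect on the 10 genes. Shares for DESeq2, no filter, the groups alone and fits without 1 library are not given here. For lactic acid in Treg 1 was called, but 2 without the filter, 2 with DESeq2, 0 with the compared groups alone, 6 with the replicate block within each time point, and 0 to 2 without 1 library. In Tcon with TGF-beta, lactic acid gave 0 calls, but 1 without the filter, 3 with the replicate block and 1 without the male libraries. For lactic acid at 72 h without TGF-beta the replicate block gave 1 in place of 0. For TGF-beta at 24 h without lactic acid 4 were called, but 7 with DESeq2, 8 with the groups alone, 8 with the block, 8 without the male libraries and 0 to 3 without 1 library. With lactic acid 4 were called, but 7 with the groups alone, 8 with the block, 8 without the male libraries and 1 to 3 without 1 library. For TGF-beta at 72 h without lactic acid 5 were called, but 3 with the groups alone and 10 with the block. The fit without the male libraries held 1 library of Tcon at 72 h with neither addition. Its counts for comparisons with that group therefore rest on that library, and they are not listed in this section. For 72 h against 24 h with neither addition 5 were called, and the count fell in at least 1 fit that left out 1 library. For the lactic acid effect with TGF-beta minus without at 72 h, the block gave 2 in place of 0. For the TGF-beta effect at 72 h minus 24 h without lactic acid the block gave 1 in place of 0. With lactic acid that difference gave 5, but 3 without the filter and 3 to 5 without 1 library. The cause of these changes was not tested. RLE scaling moved the median of all genes by -0.04 to 0.07 and none of these counts by more than 1.5 times. Between time points libraries with the same number did not move together (Pearson's r of -0.06 to 0.15 over genes), and a block over both times changed 1 of 40 calls, that of Hsph1 in lactic acid medium (adjusted p = 0.0356). The lowest level of any of the 10 genes in a library was 47.2 CPM (Hsf1), so depth was ample for all of them, and each group of 2 or 3 libraries sets the precision.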
